A study of Mus musculus with 1627 samples.

Results

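The interferon-inducible GTPases examined here were 10 mouse genes, 5 of the immunity-related GTPase (IRG) family and 5 of the guanylate-binding protein (GBP) family. They were taken by name from the 23725 genes of the count table: Igtp, Irgm1, Irgm2, Iigp1 and Ifi47 for the IRG family, and Gbp2, Gbp3, Gbp4, Gbp5 and Gbp7 for the GBP family. All 10 had at least 50 unique molecular identifiers (UMIs, tags that mark single captured mRNA molecules) over the libraries, the minimum set for comparing a gene. The cells were regulatory T cells (Tregs), sorted from injured muscle and from spleen, and both tissues came from male mice of the B6 Foxp3-Ires-Gfp strain. The mice were 8 months old and had received cardiotoxin, a venom toxin that destroys muscle fibres, 4 days earlier, so the spleens were also those of injured mice. The reporter marks cells that transcribe Foxp3, and live cells positive for it, for CD4 and for the T cell receptor beta chain were sorted, then encapsulated in inDrops droplets. Muscle was digested with enzymes and spleen was dissociated mechanically.

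IRG and GBP proteins belong to the dynamin superfamily of large GTPases and are among the most abundant products of cells that have met interferon. They assemble on the vacuoles in which intracellular parasites and bacteria live. Among the IRG proteins, Irgm1, Irgm2 and Igtp (also called Irgm3) are regulators that hold the effector IRG proteins inactive on the cell's own membranes, while Iigp1 (Irga6) and Ifi47 (Irgd) are of the effector type. Interferon-gamma is their best known inducer, in part through the factor Irf1. Type I interferons also induce them. Ifit1 and Ifit3 encode antiviral tetratricopeptide proteins that are classical targets of type I interferon. The comparison asked how the GTPases differed between muscle and spleen Tregs, and whether they were seen in the same cells as Ifit1 and Ifit3.

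Interferon acts on such genes through the interferon-stimulated response element (ISRE) and, for interferon-gamma, the gamma-activated site (GAS). The upstream windows of Igtp, Irgm2, Gbp7 and Ifit1 are shown. Among the members, Ifit1 and Ifit3, only their windows held a match, touched no annotated exon and stayed outside the RefSeq span of the gene. The ISRE core was searched as GAAANNGAAA on both strands and the GAS as TTCNNNGAA, which reads the same on both strands. Sequences are from RefSeq promoters of the GRCm38.p6 build, on the gene's strand, and capitals mark every match of either motif. The windows lie at chr11:58199499-58199543 (plus strand) for Igtp, chr11:58214890-58214934 (plus strand) for Irgm2, chr3:142530218-142530304 (plus strand) for Gbp7 and chr19:34640773-34640825 (plus strand) for Ifit1. None of the windows overlaps a GENCODE M21 exon.
Igtp: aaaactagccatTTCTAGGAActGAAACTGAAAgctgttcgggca
Irgm2: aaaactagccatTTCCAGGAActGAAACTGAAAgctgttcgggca
Gbp7: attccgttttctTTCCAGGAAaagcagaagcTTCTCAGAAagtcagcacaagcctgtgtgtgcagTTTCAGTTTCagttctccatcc
Ifit1: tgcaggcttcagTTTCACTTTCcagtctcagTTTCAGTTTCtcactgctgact

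The Igtp and Irgm2 windows of 45 bases differed at 1 base, T16C, with positions counted from 1 at the 5′ end and the Igtp base first. Lined up on the GAS without gaps, 220 upstream bases of the same promoters, these windows included, were 60.9% identical. No gaps were allowed, so a shift of bases outside the windows could lower that share. In both, the first capitals are the GAS and the second the ISRE. The Igtp ISRE began at position -34 from the annotated start, where -1 is the base before it. The Irgm2 ISRE began at position -64. The bases after the RefSeq start were found in a GENCODE M21 transcript of the gene for Igtp and Ifit1, but not for Irgm2 and Gbp7. The Irgm2 window lies inside the GENCODE span of Irgm2 (chr11:58199618-58222782), so its positions depend on the annotation. Gbp7 held GAS matches at -106 and -87 and an ISRE, read on the other strand, at -53. Ifit1 held ISRE matches at -104 and -85 and no GAS, and Ifit3 likewise held ISRE matches at -156 and -122 and no GAS. The Ifit3 matches lie inside the RefSeq span of that gene, which begins further upstream.

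The promoter table covered 8 of the 10 members, leaving out Iigp1 and Gbp4. Within 250 bases upstream to 50 downstream of the start, 7 of those 8 members held an ISRE, and Ifi47 held neither motif. Across all 27025 genes with a promoter there, 3.99% held an ISRE. Irgm1 and Gbp3 each held ISRE matches that overlap one another, at -30 and -24 in Irgm1 and at -45 and -39 in Gbp3. Gbp2 had its ISRE at -59. Gbp5 had one at -165, with GAS matches at -245 and -52. The matches of Irgm1, Gbp2 and Gbp5 lie inside the GENCODE M21 spans of those genes. A GAS was present in 4 of the 8 members, against 9.55% of all genes. A GAS that begins no more than 15 bases before an ISRE occurred in 2 members, Igtp and Irgm2, and in 24 of the 27025 genes. The pair was not particular to these members. Of 9 other IRG, GBP and large inducible GTPase genes with a promoter there, 4 held it and 6 held an ISRE. Of 23 genes known mainly as type I interferon targets, 2 held the pair and 14 held an ISRE. These matches describe letters and not binding.

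Of the 1627 cells, 1368 came from 2 muscle libraries. Muscle library 1 held 49.3% of these and 1533277 UMIs, and muscle library 2 held 50.7% and 1916496 UMIs. All other cells came from 1 spleen library of 982570 UMIs. No animal is named for any cell, so a tissue is 1 sample here, no difference between tissues was tested, and tissue and library cannot be told apart. Intervals are exact 95% intervals and cover counting error only. Spleen cells were deeper, with a median of 1976 and 2488 UMIs in the muscle libraries and 3541 in spleen. A total of 12 cell barcodes occurred in more than 1 library, 11 of them in both muscle libraries. All 7 Treg markers examined were measured, with a summed level of 7091 and 6180 CPM (UMIs scaled to a library sum of 1000000) in muscle and 3712 in spleen. Of 12 macrophage markers, 2 (Ly6c2 and Itgam) reached 50 UMIs and Adgre1 had 0 UMIs everywhere. Their summed level was 65.2 and 66.3 CPM in muscle and 151.6 in spleen. Without the 5 and 11 muscle cells and 3 spleen cells that held a UMI of Lyz2, Cd68, Csf1r, C1qa, C1qb or C1qc, the members' median log2 fold was 0.65, against 0.66 with them.

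Each of the 10 GTPases had a higher level in both muscle libraries than in spleen, but none by 2-fold in both, and Iigp1 and Gbp2 lost the excess in a muscle library under other scalings. Summed over the members, the level was 1903 CPM (1835 to 1973) and 1791 CPM (1731 to 1852) in muscle, against 1184 CPM (1117 to 1254) in spleen, which is 1.61-fold and 1.51-fold higher. The IRG members together were 1.75-fold (1.60 to 1.92) and 1.68-fold (1.54 to 1.84) higher and the GBP members 1.44-fold (1.30 to 1.60) and 1.31-fold (1.18 to 1.45) higher. Ifit1 and Ifit3 together were 4.55-fold (3.44 to 6.14) and 3.37-fold (2.54 to 4.55) higher, at 259.6 and 192.0 CPM in muscle and 56.99 CPM in spleen. The intervals of the summed members and of the Ifit pair do not overlap in either muscle library.

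**Figure D1:**
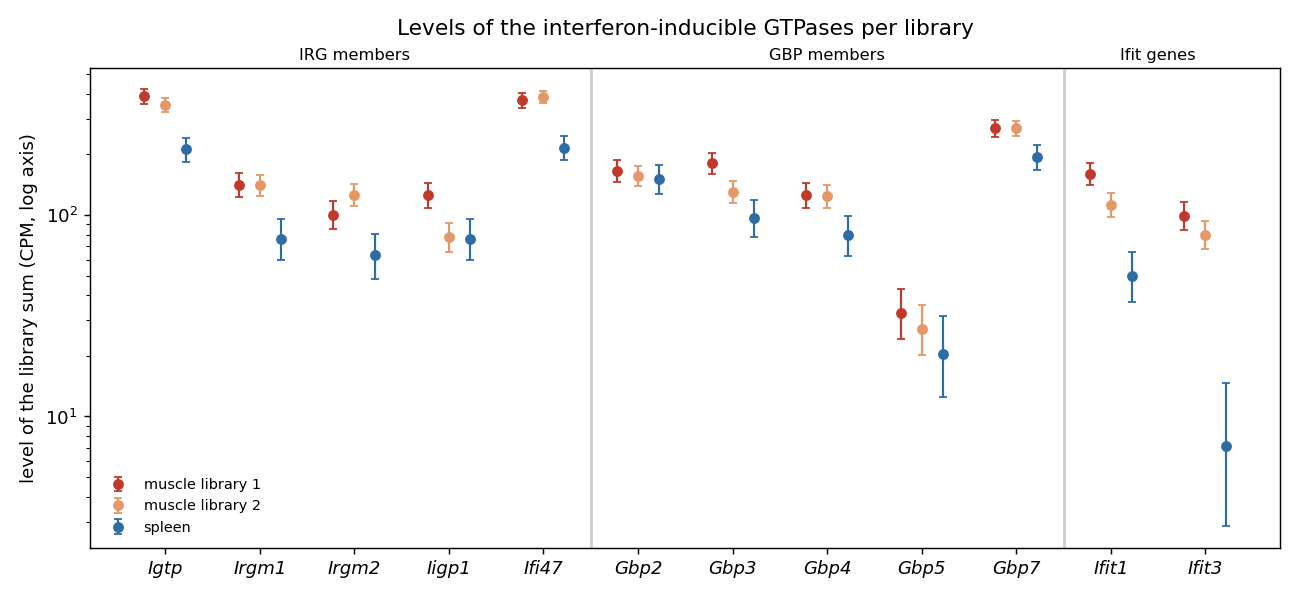
Level of each GTPase and of Ifit1 and Ifit3 in the sum of each library, in CPM on a log axis, with exact Poisson 95% intervals for counting error. The spleen points of Igtp, Irgm1, Irgm2 and Ifi47 lie below both muscle points with no overlap of intervals, those of Gbp2 overlap, and Ifit3 lies at 7.12 CPM in spleen.

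By the rule of size, at least 2-fold in both muscle libraries, 0 of the 10 members were higher and 0 were lower. Of the 7617 genes with at least 50 UMIs, 7.47% were higher and 3.45% were lower by that rule. With a bar of 1.5-fold, 5 members were higher (Igtp, Irgm1, Irgm2, Ifi47 and Gbp4), against 15.9% of all genes. Any excess in both muscle libraries was seen for 10 of 10 members and 43.3% of all genes. The members' median log2 fold was 0.66, beside 0.05 for all genes tested. Scaling to totals without ribosomal protein genes, which made up 13.6% and 13.98% of muscle UMIs and 22.7% of spleen UMIs, moved the median of all genes to -0.11 and that of the members to 0.50. The shares of all genes at least 2-fold higher and lower were then 5.63% and 5.36%. Under that scaling 8 members stayed above spleen in both muscle libraries, with Iigp1 and Gbp2 the exceptions, and Iigp1 was also the exception under edgeR TMM factors and under DESeq2 size factors.

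The 3 regulators were among the members with the larger folds. Igtp had 388.1 CPM (357.5 to 420.5) and 352.7 CPM (326.6 to 380.3) in muscle and 211.7 CPM (183.9 to 242.5) in spleen, so it was 1.83-fold (1.56 to 2.16) and 1.67-fold (1.42 to 1.96) higher. Irgm1, which also takes part in autophagy and mitochondrial upkeep, had 141.5 and 140.4 CPM in muscle and 76.3 CPM in spleen, 1.85-fold (1.42 to 2.44) and 1.84-fold (1.42 to 2.41) higher. Irgm2 had 100.4 and 125.8 CPM in muscle and 63.1 CPM in spleen, 1.59-fold (1.18 to 2.17) and 1.99-fold (1.502 to 2.68) higher. For all 3 genes the muscle libraries lay above spleen without overlap of the intervals. Igtp lies at chr11:58199556-58207591 and overlaps the GENCODE M21 span of Irgm2 (chr11:58199618-58222782) on the same strand, so their reads may be split between them.

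The 2 effector IRG genes behaved differently from each other. Ifi47 had 371.1 CPM (341.2 to 402.9) and 386.1 CPM (358.8 to 414.97) in muscle and 215.8 CPM (187.7 to 246.8) in spleen, 1.72-fold and 1.79-fold higher. Its GENCODE M21 span overlaps that of Olfr56 on the same strand, so reads may be shared. Iigp1 had 125.2 CPM (108.1 to 144.2) in muscle library 1 but 77.7 CPM (65.8 to 91.3) in muscle library 2, and 76.3 CPM (60.04 to 95.7) in spleen. Its folds over spleen were 1.64 (1.25 to 2.17) and 1.02 (0.767 to 1.36), so the muscle libraries disagreed, and muscle library 2 was at the spleen level in the summed counts. In cells thinned to 1000 UMIs each the folds were 2.58 and 1.65, on 71 and 48 muscle UMIs and 11 spleen UMIs, so the fold of muscle library 2 changed with thinning. Iigp1 UMIs also sat in few cells. They were found in 64 and 57 muscle cells and in 16 spleen cells, and the 5% of cells with most of them held 84.4% and 85.2% of its UMIs in muscle and 96% in spleen. The same share for Igtp was 38.8% and 40.4% in muscle and 45.7% in spleen. For Gbp5, found in 35 and 37 muscle cells and 12 spleen cells, it was 98% and 96.2% in muscle and 100% in spleen. The fewer cells hold a gene, the larger this share must be, and it was not particular to Iigp1.

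Among the GBP genes, Gbp3 was 1.88-fold (1.48 to 2.39) and 1.35-fold (1.06 to 1.73) higher, at 181.3 and 130.4 CPM in muscle and 96.7 CPM in spleen. Gbp4 was 1.59-fold (1.21 to 2.09) and 1.56-fold (1.21 to 2.05) higher, at 125.9 and 124.2 CPM in muscle and 79.4 CPM in spleen. Gbp7 was 1.40-fold (1.18 to 1.67) and 1.39-fold (1.18 to 1.65) higher, at 270.7 and 269.2 CPM in muscle and 193.4 CPM in spleen. The intervals of these folds stay above 1, though that of Gbp3 in muscle library 2 only just does. Gbp5, a GBP linked to inflammasome assembly, rested on 50 and 52 muscle UMIs and 20 spleen UMIs. Its folds of 1.60 (0.937 to 2.84) and 1.33 (0.782 to 2.36) could not be told from 1 at this depth. Gbp2, which binds parasite vacuoles, had 166.3 and 157.1 CPM in muscle and 150.6 CPM in spleen. Its folds of 1.10 (0.898 to 1.36) and 1.04 (0.854 to 1.28) make it the member with the smallest mean log2 fold. On the same strand in GENCODE M21, Gbp4 overlaps Gbp8 and Gbp9, and Gbp7 overlaps Gm43802. Gbp2 has the near copy Gbp2b. Reads of these genes may be shared.

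Measured in cells thinned to 1000 UMIs each, a UMI of any member was present in 61.3% (57.4 to 65.03) and 57.5% (53.7 to 61.2) of the cells of the muscle libraries, against 49.4% (43.2 to 55.7) of the spleen cells. Thinning left out 26 and 7 shallow muscle cells and no spleen cell. Without thinning the shares were 73.1% and 74.6% in muscle and 72.97% in spleen, values within 2 percentage points of each other. An IRG UMI was present in 43.7% and 40.5% of muscle cells and 28.6% of spleen cells. A GBP UMI was present in 41.05% and 34.6% of muscle cells and 32.05% of spleen cells, with the intervals of muscle library 2 (31.1 to 38.3) and spleen (26.4 to 38.1) overlapping. No cell type that should lack these genes was in the sort, so the share that free RNA gives could not be set beside these values.

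Cells with several different members made up more of muscle. At 1000 UMIs, 14.2% (11.6 to 17.1) and 14.7% (12.1 to 17.6) of muscle cells and 5.41% (2.99 to 8.90) of spleen cells held 3 or more different members. At least 5 members were seen in 27 and 23 muscle cells, or 4.17% and 3.35%, and in 1 spleen cell. Most cells held none or a single member in every library.

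**Figure D2:**
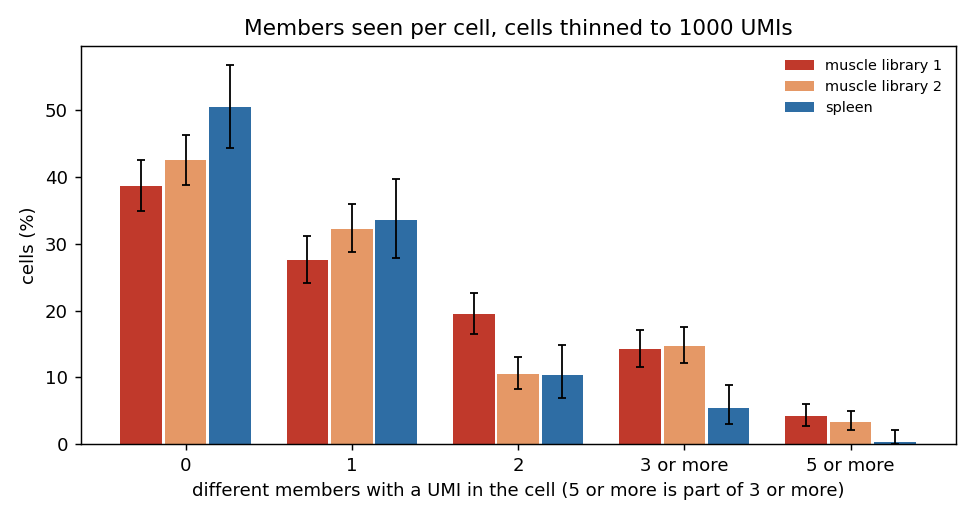
Share of cells by the number of different GTPases with a UMI, in cells thinned to 1000 UMIs, with exact binomial 95% intervals. Cells with 3 or more members make up 14.2% and 14.7% of the muscle libraries and 5.41% of spleen, while the share with none is 38.7% and 42.5% in muscle and 50.6% in spleen.

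Thinned levels gave larger folds for some members and smaller ones for others. Irgm1 had a thinned level of 162.04 and 141.2 CPM in muscle and, on 13 UMIs, 50.2 CPM in spleen, which put it 3.23-fold and 2.81-fold higher. Ifi47, at 365.7 and 404.7 CPM in muscle and, on 47 UMIs, 181.5 CPM in spleen, was 2.02-fold and 2.23-fold higher. Gbp5 had 24 and 24 thinned UMIs in muscle and 3 in spleen, too few to read a fold from. The fold of Igtp was smaller, at 1.46 and 1.45 against 1.83 and 1.67 in the summed counts, and so was that of Gbp4, at 1.199 and 1.27 against 1.59 and 1.56. Irgm1, Ifi47 and Gbp5 were the 3 members past 2-fold with thinning, beside 10.3% of all genes tested. With equal weight for each cell Irgm1 was the 1 member of 10 past it, near the 8.43% of all genes.

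The GTPases were seen more often in the cells that held Ifit1 or Ifit3. At 1000 UMIs, an Ifit1 or Ifit3 UMI was held by 70 cells in the first and 69 in the second muscle library, or 10.8% (8.52 to 13.5) and 10.04% (7.90 to 12.5), against 7 spleen cells, or 2.70% (1.09 to 5.49). In muscle library 1 a UMI of any member was present in 88.6% (78.7 to 94.9) of the Ifit-positive cells and 57.96% (53.8 to 62.02) of the other cells. In muscle library 2 the shares were 86.96% (76.7 to 93.9) of the Ifit-positive cells and 54.2% (50.2 to 58.2) of the others. The intervals do not overlap in either library. Foxp3, a gene of the sort itself, was present in 40% and 33.3% of the Ifit-positive muscle cells and 38.8% and 35.3% of the others, with overlapping intervals.

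Ifi47, Irgm1 and Igtp showed the pattern in both libraries. Ifi47 was present in 60% (47.6 to 71.5) and 50.7% (38.4 to 62.98) of the Ifit-positive muscle cells and in 15.7% (12.9 to 18.97) and 16.7% (13.8 to 19.8) of the others. Irgm1 was present in 38.6% and 27.5% of the Ifit-positive muscle cells and in 9.17% and 8.90% of the others. Igtp was present in 47.1% and 50.7% of the Ifit-positive muscle cells and in 19.9% and 18.4% of the others. Intervals of these 3 genes did not overlap in either library. For 6 members they overlapped in a single library, which was muscle library 1 for Irgm2, Gbp2 and Gbp5 and muscle library 2 for Iigp1, Gbp4 and Gbp7. For Gbp3 they overlapped in both libraries, with 21.4% and 14.5% of the Ifit-positive cells and 11.9% and 8.74% of the others.

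**Figure D3:**
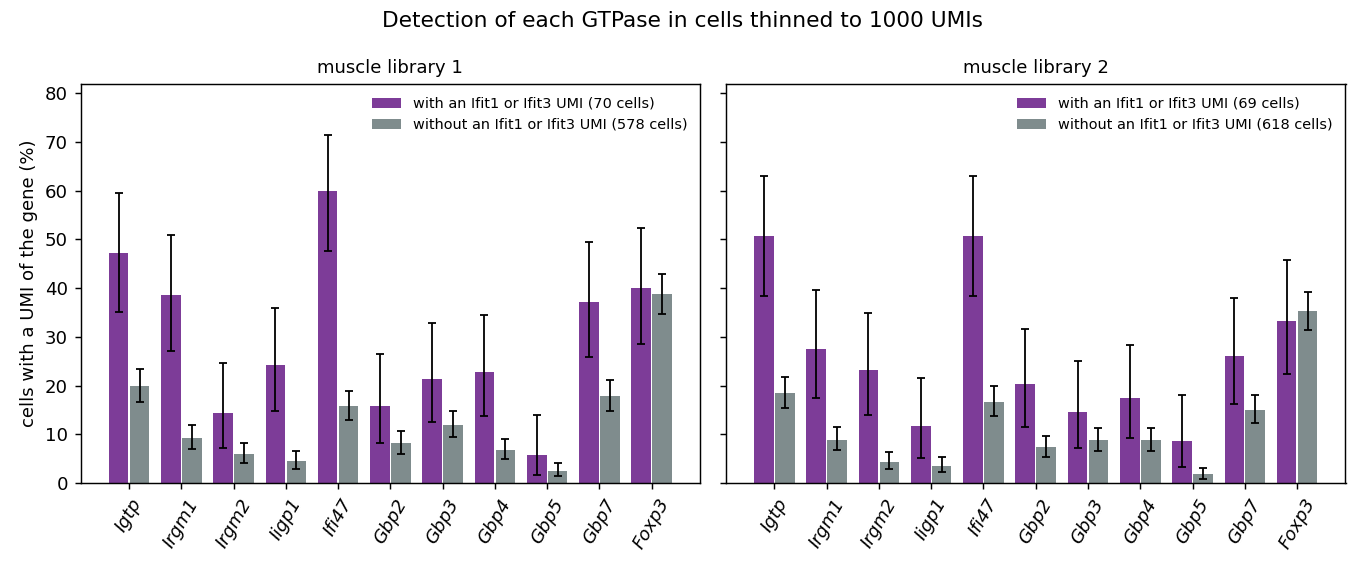
Share of muscle cells with a UMI of each GTPase, and of Foxp3 for comparison, among cells with and without an Ifit1 or Ifit3 UMI, in cells thinned to 1000 UMIs, with exact binomial 95% intervals. Ifi47 reaches 60% and 50.7% among Ifit-positive cells and stays at 15.7% and 16.7% among the others, while the Foxp3 bars overlap.

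Seen from the GTPases, of the 160 cells with at least 3 member UMIs at this depth in each muscle library, 29.4% and 25.6% held an Ifit1 or Ifit3 UMI, beside 10.8% and 10.04% of all cells of those libraries. In spleen 2 of 43 such cells (4.65%) did, beside 2.70% of all. Since Ifit-positive cells were fewer than the 160, most of these cells would lack an Ifit UMI at any degree of overlap. In spleen, 4 of the 7 Ifit-positive cells and 49.2% of the others held a member UMI, and 7 cells are too few to compare.

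Across all cells, without thinning, the summed members and Ifit1 plus Ifit3 had a Pearson r of 0.38 and 0.34 over the cells of the muscle libraries, 1368 in all, and 0.16 over those of spleen. Values were the natural log of 1 plus UMIs per 10000, and the cells of a library share its preparation and sequencing. An Ifit1 or Ifit3 UMI was held by 15.3% and 14.4% of muscle cells and by 11 spleen cells (4.25%), so the spleen value rests on few cells. The members' sum had an r of 0.12 and 0.15 with the log UMI total in muscle and 0.12 in spleen, and Ifit1 plus Ifit3 had 0.041 and 0.028 in muscle. With the UMI total held fixed, the partial r of the sums was 0.38 and 0.34 in muscle and 0.16 in spleen. In cells thinned to 1000 UMIs the r of the sums was 0.316 and 0.301 in muscle and 0.0555 in spleen, where 7 cells were Ifit-positive. The IRG sum had an r of 0.41 and 0.37 with the Ifit sum in muscle, and the GBP sum 0.31 and 0.23.

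All 10 members had an r of at least 0.1 with Ifit1 plus Ifit3 in both muscle libraries, which 1.69% of the 7615 genes compared did. Ifi47 had 0.38 and 0.35, Iigp1 0.41 and 0.27, Irgm1 0.36 and 0.24, and Igtp 0.30 and 0.31. Among the GBP genes Gbp4 led with 0.28 and 0.23. Gbp7 had 0.28 and 0.16, and Gbp2 had 0.20 in both libraries. Gbp3 (0.19 and 0.12), Irgm2 (0.13 and 0.26) and Gbp5 (0.11 and 0.12) came lowest by the smaller of the muscle values, although in muscle library 2 Irgm2 was above Irgm1 and every GBP member. With thinning to 1000 UMIs 6 members reached 0.1 in both libraries. With Spearman rho 9 did, and without the 1% of cells with the highest Ifit1 plus Ifit3 level 8 did. The share of all genes was not counted under these alternatives.

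Iigp1 was in each of the 3 leading pairs of members. The pairs with the largest smaller r over the muscle libraries were Igtp with Iigp1 (0.33 and 0.34 in muscle, 0.23 in spleen), Iigp1 with Gbp4 (0.31 and 0.36 in muscle, 0.14 in spleen) and Iigp1 with Ifi47 (0.35 and 0.30 in muscle, 0.20 in spleen). The weakest was Gbp5 with Gbp7, at 0.015 and 0.065 in muscle and -0.010 in spleen. The median over the 45 pairs was 0.18 and 0.16 in muscle and 0.12 in spleen. After thinning to 1000 UMIs it was 0.111 and 0.128 in muscle and 0.0226 in spleen. Over cells with no Ifit1 or Ifit3 UMI it was 0.092 and 0.097 in muscle and 0.095 in spleen. Igtp with Irgm2, which may share reads, had 0.20 and 0.20 in muscle and 0.29 in spleen, and these values carry that limit.

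**Figure D4:**
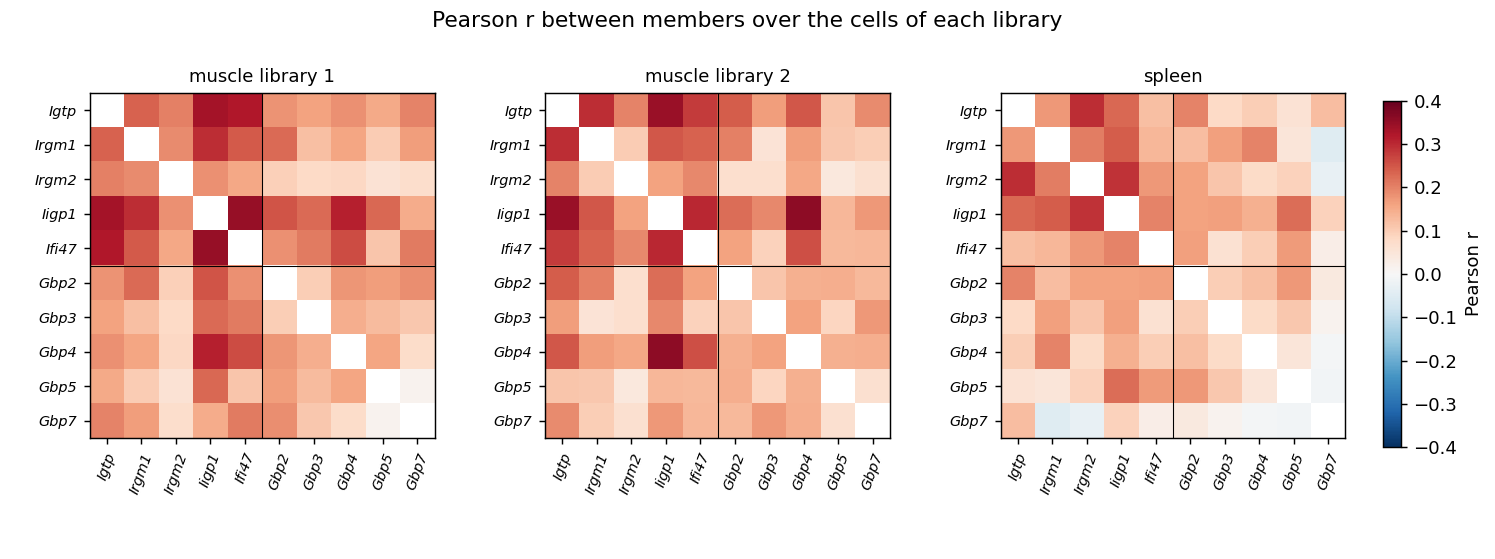
Pearson r between every pair of members over the cells of each library, on 1 colour scale, with lines that part IRG from GBP genes. The darkest squares in muscle join Iigp1 to Igtp, Ifi47 and Gbp4, and in spleen they join Irgm2 to Igtp and Iigp1.

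The muscle excess was smaller among cells in which Ifit1 and Ifit3 were not seen. In all cells with an Ifit1 or Ifit3 UMI, the members summed to 4691 and 3898 CPM in muscle and 2934 CPM (2457 to 3477) in the 11 spleen cells. In the other cells they summed to 1372 CPM (1309 to 1437) and 1409 CPM (1352 to 1468) in muscle and 1099 CPM (1033 to 1168) in spleen. Left without the Ifit-positive cells of all libraries, the summed members were 1.25-fold (1.16 to 1.35) and 1.28-fold (1.19 to 1.38) higher in muscle, against 1.61-fold and 1.51-fold over all cells. The members' median log2 fold was 0.33 in these cells. Their median depth was 1945 and 2452 UMIs in muscle and 3520 in spleen, and the part of depth in which cells count as Ifit-negative was not tested.

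Members parted in this comparison. Gbp3 had folds of 1.75 (1.34 to 2.29) and 1.33 (1.02 to 1.75) in Ifit-negative cells, close to its 1.88 and 1.35 over all cells. Irgm2 had 1.55 (1.11 to 2.17) and 1.55 (1.13 to 2.16), and Igtp 1.42 (1.19 to 1.70) and 1.36 (1.15 to 1.62). Ifi47 had 1.14 (0.949 to 1.38) and 1.35 (1.13 to 1.61). Iigp1 was lower in muscle than in spleen in these cells, with folds of 0.762 (0.533 to 1.09) and 0.839 (0.604 to 1.17) whose intervals hold 1. In muscle library 1 Iigp1 had 509.5 CPM (424.1 to 606.996) in the Ifit-positive cells and 52.02 CPM (40.3 to 66.1) in the others. The gap was smaller in the other libraries, with 190.5 CPM in the Ifit-positive cells and 57.3 CPM in the others in muscle library 2, and 242.7 CPM, on 11 UMIs, and 68.3 CPM in spleen.

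**Figure D5:**
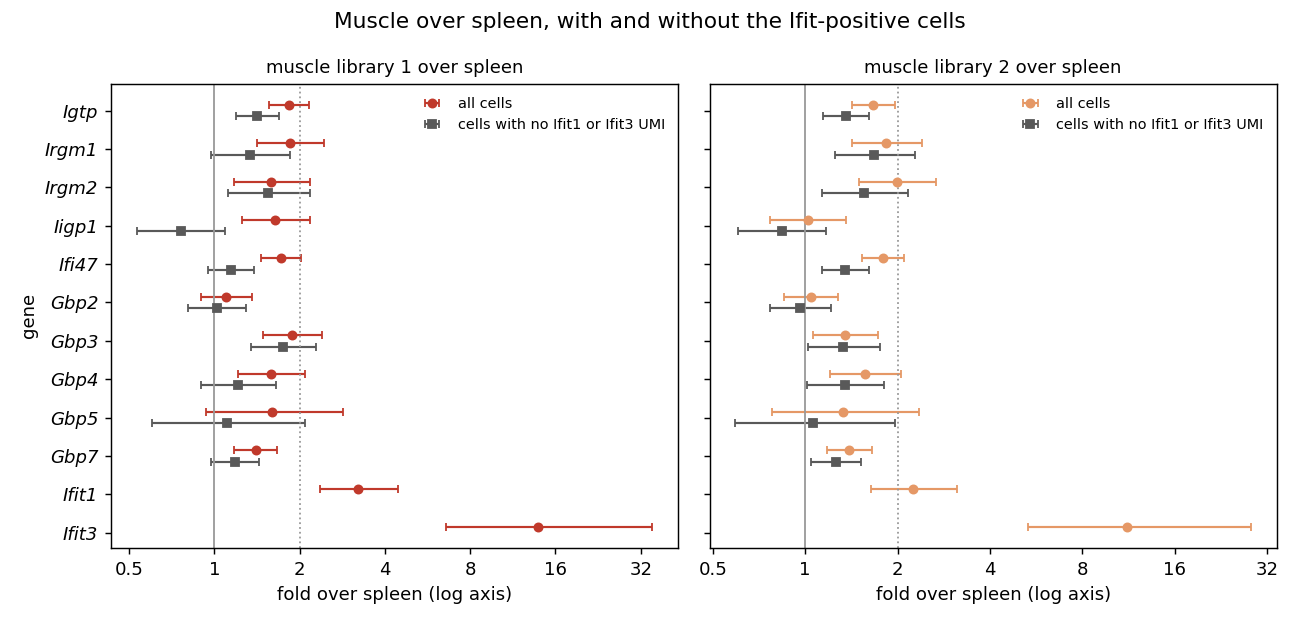
Fold of each muscle library over spleen for the GTPases over all cells (circles) and over cells with no Ifit1 or Ifit3 UMI (squares), on a log axis with exact 95% intervals, the solid line marking 1 and the dotted line 2. Ifit1 and Ifit3 are shown over all cells only, at 3.22 and 2.25 for Ifit1 and 13.9 and 11.2 for Ifit3, right of every GTPase point.

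Relatives of the members had similar, smaller excesses. Of 18 further IRG, GBP and large inducible GTPase genes with counts, 12 had at least 50 UMIs. By the 2-fold rule 0 were higher and 0 lower, beside 7.47% and 3.45% of all genes tested. Their median log2 fold was 0.39, beside 0.05 for all genes. In both muscle libraries 10 of the 12 were above spleen (all but Gm4951 and Irgq), beside 43.3% of all genes. With DESeq2 size factors or without ribosomal genes 8 were, and Tgtp1 and Gbp10 were also exceptions. Without the Ifit-positive cells 3 of the 12 were above spleen in both muscle libraries (Gbp2b, Gbp6 and Gbp9), against 8 of the 10 members. The share of all genes above spleen was not counted under these alternatives, so their counts have no background. Tgtp1 and Tgtp2, effector IRG genes that are near copies of each other and may share reads, had folds of 1.48 and 1.03 for Tgtp1 and 1.48 and 1.16 for Tgtp2. Gbp6 had 1.29 and 1.30, Gbp9 1.48 and 1.39, Gbp8 1.69 and 1.25, and Gbp10 1.35 and 1.03. Gvin1, a very large inducible GTPase, had 1.54 and 1.14, Gm8979 1.61 and 1.13 and Gm12250 1.43 and 1.19. Gbp2b was at 2.56 (1.30 to 5.50) and 1.77 (0.887 to 3.84) on 93 UMIs in all, Gm4951 at 0.592 and 1.28, and Irgq at 0.854 and 1.82. An r of at least 0.1 with Ifit1 plus Ifit3 in both muscle libraries was found for 9 of the 12, beside 1.69% of all genes compared.

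The genes whose values over cells were most like the summed members were largely relatives. Ranked by the smaller of the muscle r values among 7607 genes, they were Zbp1 (0.35 and 0.36), a sensor of nucleic acids that triggers cell death, Gbp6 (0.35 and 0.41), Ifit3 (0.34 and 0.30), Gbp9 (0.30 and 0.30), Tgtp1 (0.36 and 0.29), Tgtp2 (0.34 and 0.28), Isg20 (0.28 and 0.28) and Gbp10 (0.27 and 0.33). In spleen, which the ranking did not use, Gbp6, Tgtp1 and Tgtp2 had 0.28, 0.30 and 0.30, Ifit3 had 0.051 and Isg20 0.064. Of all genes ranked, 1.51% had an r of at least 0.1 in both muscle libraries.

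By median log2 fold the members, at 0.66, lay between the genes known as type I targets and those linked to interferon-gamma. Of 27 measured genes known mainly as type I targets, Ifit1 and Ifit3 included, 16 were at least 2-fold higher in muscle and 0 at least 2-fold lower. Their median log2 fold was 1.18, and Ifitm3, Rsad2, Ifit3 and Ifit3b had the largest. Ifit3 and Ifit3b are near copies that may share reads. Of 17 measured genes linked to interferon-gamma, 1 was higher (Irf8, 4.13-fold and 3.20-fold) and 0 lower, with a median of 0.31. Of all genes tested, 7.47% were higher and 3.45% lower by that rule. Tap1, Tap2 and Tapbp, which load peptides onto MHC class I, were near the members at 1.83 and 1.72, 1.71 and 1.76, and 1.73 and 1.97. Over cells, the summed members had an r of 0.37 and 0.37 in muscle and 0.31 in spleen with the gamma-linked list, and 0.35 and 0.37 in muscle and 0.22 in spleen with 28 type I targets other than Ifit1 and Ifit3. In muscle these values did not part the lists. Ifit1 plus Ifit3 had an r of 0.48 and 0.46 in muscle with those 28 targets and 0.37 and 0.31 with the gamma-linked list. Which interferon acted was not tested. With 10 genes of resting T cells r was 0.025 and 0.021 in muscle, and with 12 genes of effector Tregs of tissues it was -0.067 and -0.065. Those 12 effector genes, listed with earlier results of these data known, were all at least 2-fold higher in muscle, with a median log2 fold of 2.65. That count describes how the list was made and is not a result.

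The signalling genes did not move as one. Irf1 was at 0.636 (0.533 to 0.758) and 0.548 (0.461 to 0.652) of the spleen level, with an r of 0.21 and 0.15 with the summed members in muscle. Of 11 signalling genes 2 were higher by the 2-fold rule, Irf7 and Irf8, and 0 lower, beside 7.47% and 3.45% of all genes tested. Of the interferon receptors, Ifngr1, the ligand-binding chain for interferon-gamma, was 2.18-fold (1.97 to 2.41) and 2.52-fold (2.29 to 2.77) higher. Ifngr2, its signalling partner chain, was lower at 0.38 (0.269 to 0.534) and 0.310 (0.220 to 0.434) of the spleen level. Ifnar1, of the type I receptor, was at 0.971 and 0.950 and Ifnar2 at 0.797 and 0.811. Neither Ifngr1 nor Ifngr2 had an r above 0.06 with Ifit1 plus Ifit3 in a muscle library. Ifng had 3 and 13 UMIs in muscle and 5 in spleen, and the interferon-alpha and interferon-beta genes examined, Ifnb1, Ifna1, Ifna2, Ifna4 and Ifna5, had 0 UMIs in every library.

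Genes whose products work with the GTPases mostly stayed within 2-fold, as did most genes tested. By the 2-fold rule, 7.47% of all genes tested were higher and 3.45% lower. Of 15 measured autophagy and inflammasome genes, 0 were higher and 1 was lower by it, with a median log2 fold of -0.17. The 1 lower was Atg16l1, a part of the conjugation machinery that directs GTPases to vacuoles, at 0.441 (0.270 to 0.713) and 0.285 (0.167 to 0.475). Casp4, which GBP proteins help to activate, was at 0.583 and 0.373 on 58 UMIs, and Atg3 at 0.756 and 0.505. Atg7 went the other way, at 1.71 (1.02 to 2.97) and 1.34 (0.799 to 2.34). In all, 6 of the 15 were above spleen in both muscle libraries, near the 43.3% of all genes tested. Among other dynamin-like GTPases, 3 of 8 measured were higher by the 2-fold rule, beside 7.47% of all genes tested. Mx1, an antiviral protein, was at 3.48 (2.03 to 6.36) and 2.15 (1.23 to 3.97) on 16 spleen UMIs. The others were the mitochondrial fusion genes, each on few spleen UMIs. Mfn2 was at 3.60 (1.68 to 8.85) and 3.97 (1.90 to 9.61) on 8, and Mfn1 at 2.44 (1.19 to 5.48) and 2.31 (1.15 to 5.13) on 10. Dnm1l, of the same list, went the other way, at 0.574 (0.371 to 0.885) and 0.673 (0.455 to 1.001). Mx1 had an r of 0.24 and 0.15 with the summed members in muscle. Mfn1 and Mfn2 lay between -0.039 and 0.040.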

How the data were processed

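Per the labels, single Foxp3-reporter Tregs were profiled with inDrops, and the authors deposited raw UMI counts per gene and cell. The submitters' processing notes name mm10, TopHat2 and SAMtools. How cells were filtered, UMIs collapsed and genes annotated, and whether strand was used, is not given in the sources used here. Cells were assigned to the 3 libraries by their labels and all were kept; no doublet caller was run. UMIs of each library were added up and divided by their total (CPM), where 1 UMI was worth 0.652 and 0.522 CPM in muscle and 1.02 CPM in spleen. Levels carry exact Poisson, folds exact conditional binomial (Clopper-Pearson) and shares exact binomial 95% intervals. UMIs cluster in cells, which these intervals leave out. A gene with 0 UMIs in a library took the floor of 3 counts. Shares used cells thinned without replacement to 1000 UMIs (seed 1). Functions were tested on simulated data.

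The members and gene lists were chosen with earlier results of these data known. The text names the members, Ifit1 and Ifit3, relatives with at least 50 UMIs, up to 4 genes of each other list with the largest mean log2 folds, and the 8 genes most like the summed members; other named list genes were chosen after their values were seen. Alternatives changed scaling, minimum, fold, weighting, thinning, correlation measure and the cells or libraries included. The edgeR and DESeq2 packages gave scaling factors only. Coordinates are from GENCODE M21 and promoters from RefSeq, both on GRCm38. Protein sequences were not used here. Some genes of the lists are not reported here by name. Scaling ran in R 4.3.3 (edgeR 4.0.16, DESeq2 1.42.0) and the rest in Python 3.11.15 with scipy 1.17.1, numpy 2.4.6, pandas 2.3.3 and, for plots, matplotlib 3.10.9.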

Additional observations from a re-analysis of the deposited data

How the results depend on the processing

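The count of members at least 2-fold higher, 0, became 1 with equal weight per cell, 3 with cells thinned to 1000 UMIs and 5 at 1.5-fold, and was 0 under the other alternatives. No alternative gave a member that was 2-fold lower in both. The members' median log2 fold of 0.66 was 0.50 without ribosomal protein genes in the totals, 0.85 in thinned cells and 0.33 without the Ifit-positive cells, an alternative added after seeing the data; each muscle library alone gave 0.56 to 0.70. Thinning also lowered the r of the summed members with Ifit1 plus Ifit3 to 0.316 and 0.301 in muscle and 0.0555 in spleen, the median pairwise r to 0.111 and 0.128 in muscle and 0.0226 in spleen, and the members with r of at least 0.1 to 6. Among cells with no Ifit UMI the median pairwise r of muscle library 1 was 0.0922. The share of cells with a member UMI was 73.1% and 74.6% in muscle and 72.97% in spleen without thinning, and 69.9% and 70.1% in muscle and 56.1% in spleen at 1500 UMIs. Over all genes, 7.47% were higher and 3.45% lower in muscle. The shares were 15.9% and 10.8% at 1.5-fold, 9.19% and 5.64% with a minimum of 10 UMIs, and 5.63% and 5.36% without ribosomal protein genes. They were 8.43% and 4.28% with equal weight per cell and 10.3% and 5.24% in thinned cells. Muscle library 1 alone gave 10.3% and 6.89%, and muscle library 2 alone gave 10.9% and 6.96%. Leaving out cells with macrophage marker UMIs was also added after seeing the data. The cause of these shifts was not tested. No paired analysis was possible because the numbers in the sample titles count cells and no result comes from a test over samples. Depth limits genes with few spleen UMIs, such as Gbp5 with 20, Mfn1 with 10, Mfn2 with 8, Ifit3 and Ifit3b with 7 each, Rsad2 with 5 and Ifitm3 with 1.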
